A study of Mus musculus with 9 samples.

Results

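The chemokine system of the injured mouse spinal cord was described by 40 genes, 26 chemokines and 14 chemokine receptors. They came from a list of gene symbols, matched to the Ensembl identifiers of the count table, and all 40 were found among its 52550 genes. RNA was sequenced from the spinal cord of 9 mice on day 7 after surgery, 3 in each group. All were adult female C57BL/6N mice. Sham mice had a laminectomy, the removal of the bone over the cord, and no injury. SCI mice had a contusion of the thoracic cord, delivered by an impactor, and injections of DMSO, the vehicle. SCI+FIPI mice had the same contusion and daily injections of FIPI, a small molecule that inhibits phospholipase D, an enzyme that makes phosphatidic acid. No injection is described for the Sham mice, so the contusion and the vehicle cannot be told apart in SCI against Sham. Each library came from the segment of cord around the injury, with all of its cell types mixed.

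Chemokines are small secreted proteins that form gradients and direct the movement of leukocytes. They act on receptors that couple to inhibitory G proteins and, through phosphoinositide 3-kinase and small GTPases, turn the cell toward the source. Ligands of the CC class such as Ccl2 and Ccl7 draw monocytes out of the blood through the receptor Ccr2. Cxcl1 and Cxcl2 draw neutrophils through Cxcr2. Cxcl12 holds Cxcr4-bearing cells in place, and Cx3cl1, which is anchored in the membrane of neurons, is read by microglia through Cx3cr1. Atypical receptors bind chemokines without G protein signaling and store, carry or remove them. In the injured cord, glia and invading myeloid cells are known sources of the CC ligands.

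The stretches upstream of Cxcl1, Cxcl2 and Cxcl10 are shown because each matched the kappaB motif as searched or the interferon response element. These are 2 of the 5 motifs searched. They were also shown because Cxcl1 and Cxcl2 were called higher after injury, the latter not in every setting, and Cxcl10 was not. RefSeq windows of the 250 bases before a gene's start (build GRCm38.p6) were matched by symbol for 29 of the 40 genes, in 31 windows. Ccl2, Ccl4, Ccl5, Ccl7, Ccl11, Ccl24, Cxcl5, Cxcl11, Cxcl16, Ccr7 and Cxcr5 had no window and were not searched. The kappaB motif, which NF-kappaB binds, and the interferon response element were searched on both strands, and no match of one overlapped a match of the other. The search left 1 of 10 positions free for kappaB, the fifth of those in capitals for Cxcl1 and Cxcl2, and 2 of 10 for the interferon response element, the fifth and the sixth of those for Cxcl10. The printed runs start 250 bases and end 51 bases before the RefSeq start of transcription. They are read 5′ to 3′ on the gene's strand and carry the motif in capitals. They cover chr5:90890995-90891194 on the plus strand for Cxcl1, chr5:90903649-90903848 on the plus strand for Cxcl2 and chr5:92348940-92349139 on the minus strand for Cxcl10.
Cxcl1: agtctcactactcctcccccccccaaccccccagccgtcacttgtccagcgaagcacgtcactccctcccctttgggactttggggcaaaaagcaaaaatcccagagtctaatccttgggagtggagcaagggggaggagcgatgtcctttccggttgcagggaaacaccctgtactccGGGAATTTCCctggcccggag
Cxcl2: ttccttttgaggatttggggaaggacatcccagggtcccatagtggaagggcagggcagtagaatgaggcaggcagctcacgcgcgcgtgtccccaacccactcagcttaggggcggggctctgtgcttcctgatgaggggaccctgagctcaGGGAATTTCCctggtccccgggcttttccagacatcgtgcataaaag
Cxcl10: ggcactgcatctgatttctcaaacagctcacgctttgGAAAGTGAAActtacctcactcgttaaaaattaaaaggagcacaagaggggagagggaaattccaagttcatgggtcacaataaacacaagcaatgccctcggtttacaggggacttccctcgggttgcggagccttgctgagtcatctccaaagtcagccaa
The kappaB motif lay 71 bases before the RefSeq start of Cxcl1 and 97 bases before that of Cxcl2, with the same 10 letters in both. The interferon response element lay 213 bases before the RefSeq start of Cxcl10. Gene coordinates given further below are of GENCODE M21. Its start for Cxcl2 (chr5:90903871) lies inside the RefSeq window (chr5:90903649-90903898), as does its start for Cxcl1, so distances counted from those starts would be shorter. The kappaB letters were in 9.68% of the 31 windows, those of Cxcl1, Cxcl2 and Ccr3, and in 0.356% of 32851 windows of the same length over all genes. The interferon response element was in 9.68% of the 31 windows, those of Cxcl10, Ccl19 and Cxcl14, against 2.98% of all windows. The other 3 motifs searched are not in capitals. The AP-1 motif (TGANTCA) was in 9.68% of the 31 windows, those of Ccl9, Ccr3 and Cxcl10, against 6.75% of all, the TATA box (TATAAA) in 32.3% against 12.4%, and the GC box (GGGCGG) in 16.1% against 32.7%. These are matches of letters and not measured binding sites. Only 1 form of the kappaB motif was searched, and a window without a match, that of Cxcl10 included, can hold another form. The search therefore cannot say that Cxcl10 differs from Cxcl1 and Cxcl2 in having no kappaB site.

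Total counts lay between 20806000 and 24582377 per mouse. Levels of a gene are given as CPM, its count scaled by the TMM-adjusted library total. Oligodendrocyte markers (5 genes, 21800 to 32900 CPM in sum) and neuron markers (8 genes, 1010 to 4600 CPM) were present in all 9 libraries, which are labelled spinal cord. The summed level of 6 monocyte and macrophage markers was 123 to 226 CPM in Sham, 4820 to 5990 CPM in SCI and 3460 to 4680 CPM in SCI+FIPI mice. Against SCI, 5 of these 6 markers had a negative log2 fold change in SCI+FIPI (50.3% of all genes), and the median was -0.431. The test in edgeR was passed by 0 of the 6 (3.06% of all genes), and an unadjusted p under 0.05 by 0 (25.2%). In 3 of the 6 every SCI+FIPI mouse lay below every SCI mouse (14.5% of all genes), and in 1 every one lay above (15.7%). The 5 bone markers did not move together. Col10a1 was at 0 to 0.192 CPM in Sham, 65.9 to 80.4 CPM in SCI and 4.03 to 14.8 CPM in SCI+FIPI, whereas Bglap was called higher in SCI+FIPI than in SCI (0.983 to 2.18 CPM against 0.331 to 0.38 CPM). In RNA of whole tissue, a change in the number of cells of a type and a change in RNA per cell cannot be told apart, and the part of these cell types in the results below was not tested.

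In the injured cord, most of the chemokine genes that could be tested were higher than in Sham. Of the 40 genes, 35 had enough counts for the test, and 20 of the 35 rose, 1 fell and 14 did not pass. Among all 18699 genes tested, 24.4% were called higher and 22.5% lower (47% in either direction). Calls were made with the quasi-likelihood test of edgeR and needed both a log2 fold change of 0.5 or more in size and a Benjamini-Hochberg adjusted p below 0.05. That p alone was passed by 24 of the 35 genes, against 65.9% of all genes, and an unadjusted p under 0.05 by 25, against 68.6%. The log2 fold change was above 0 in 31 of the 35 (49.8% of all genes) and below 0 in 4 (50.2%). Its median over the 35 genes was 1.59, and over all genes -0.003. In 22 of the 35 genes every SCI mouse lay above every Sham mouse, and in 3 every SCI mouse lay below, against 35.6% and 35% of all genes.

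The FIPI group differed from the SCI group in far fewer of them. Between SCI+FIPI and SCI, 2 of the 35 genes were called, Ccl2 and Ccl7, both lower, and 0 were called higher, against 0.695% and 2.36% of all genes (3.06% in either direction). The adjusted p alone was passed by 3 of the 35, Cx3cl1 being the other one, against 9.63% of all genes. At an unadjusted p under 0.05, 10 of the 35 passed, against 25.2% of all genes, and by DESeq2 5 were lower and 0 higher, where 175 and 473 of 18697 genes were. The log2 fold change was negative in 27 genes (50.3% of all genes) and positive in 8 (49.7%), with a median of -0.308 against -0.001 over all genes. In 8 genes (Ccl2, Ccl3, Ccl6, Ccl7, Ccl12, Ccr1, Ccr2 and Ccr7) every SCI+FIPI mouse lay below every SCI mouse, and in Cx3cl1 every SCI+FIPI mouse lay above, against 14.5% and 15.7% of all genes. Against Sham, 18 of the 35 genes were called higher and 1 lower in SCI+FIPI, where 21.2% and 17% of all genes were (38.1% in either direction). In 18 genes every SCI+FIPI mouse lay above every Sham mouse and in 3 every one lay below, against 33.4% and 32.9% of all genes. An adjusted p under 0.05 was reached by 20 of the 35 (59.1% of all genes), and so was an unadjusted one (62.9%). The log2 fold change was above 0 in 29 (49.8%) and below 0 in 6 (50.2%), and its median was 1.22. The comparisons share the SCI or the Sham mice, so their values are given side by side and are not independent of each other. With 3 mice against 3, the exact two-sided permutation test of single genes cannot go below p = 0.1, which it gave for genes whose groups did not overlap.

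**Figure D1:**
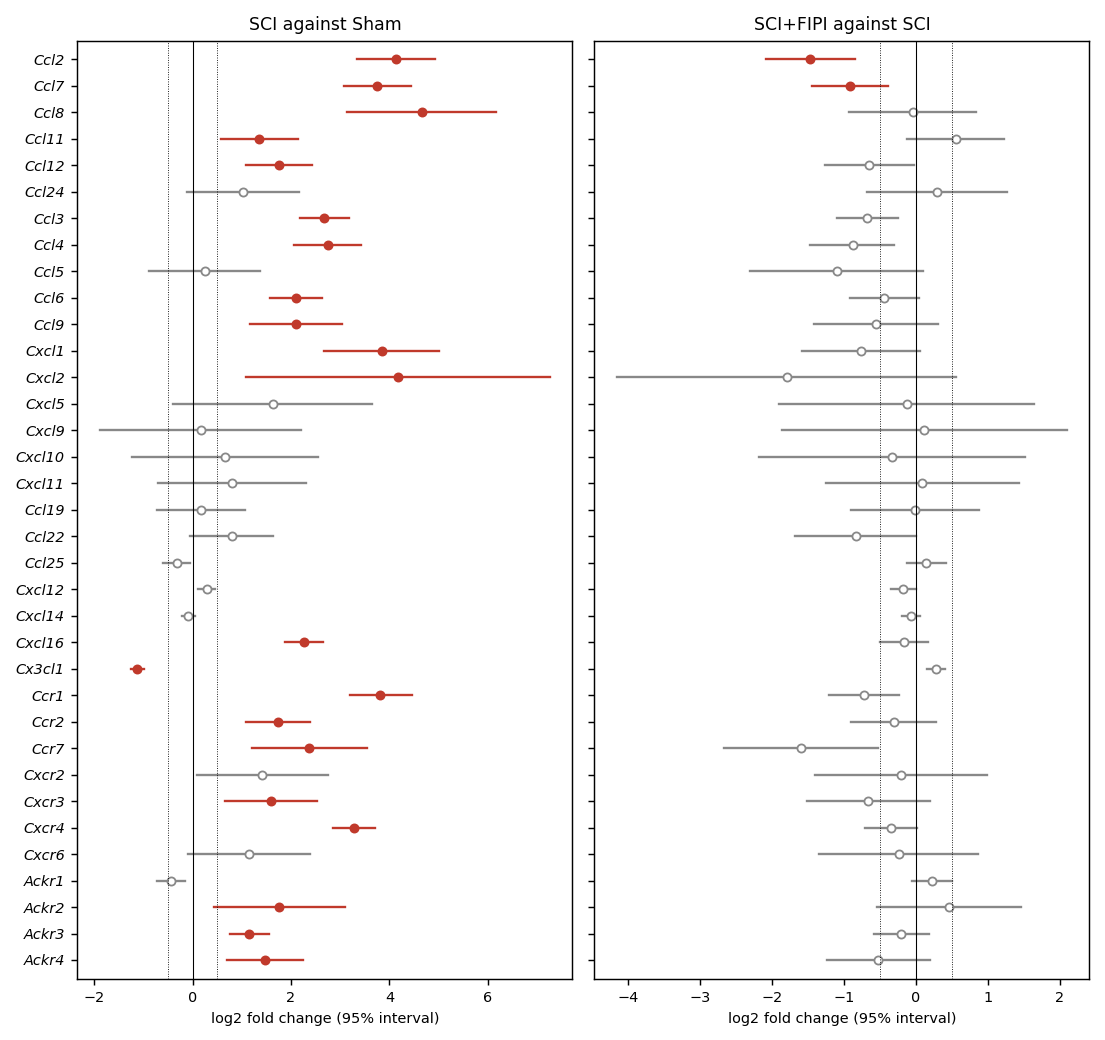
Log2 fold change of the 35 tested genes in SCI against Sham (left) and SCI+FIPI against SCI (right), with bars for the 95% interval and dotted lines at an absolute log2 fold change of 0.5. Filled red points passed both limits, 21 on the left and 2 (Ccl2 and Ccl7) on the right, and open grey points did not.

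Ccl2, Ccl7, Ccl8 and Ccl12 belong to the monocyte chemoattractant proteins, and Ccl11 and Ccl24 are eotaxins, which attract eosinophils through Ccr3. Of these 6 ligands, 5 rose in SCI, where 24.4% of all genes were called higher, and Ccl24 did not pass. Ccl2 (chr11:82035571-82037453, plus strand, GRCm38) was at 0.958, 1.43 and 0.334 CPM in the 3 Sham mice, 12.4, 20.8 and 14.4 CPM in the SCI mice and 6.08, 5.04 and 6.04 CPM in the SCI+FIPI mice. The 3 groups did not overlap, and SCI+FIPI lay between the others. Ccl2 was 17.5-fold higher in SCI than in Sham, a log2 fold change of 4.13 (95% interval 3.34 to 4.92, adjusted p = 2.62e-06). In SCI+FIPI it was 2.77-fold lower than in SCI, with a log2 fold change of -1.47 (-2.09 to -0.85, adjusted p = 0.013). It was above Sham by 2.66 on the log2 scale (adjusted p = 0.000143).

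Ccl7 (chr11:82045712-82047525, plus strand), the neighbor of Ccl2, was at 0.575, 0.993 and 0.501 CPM in Sham, 6.71, 13.2 and 8.18 CPM in SCI and 4.65, 4.49 and 5.70 CPM in SCI+FIPI. Its groups did not overlap either, although SCI mouse 1 and SCI+FIPI mouse 3 were close. The log2 fold change was 3.75 in SCI against Sham (3.07 to 4.43) and -0.92 in SCI+FIPI against SCI (-1.45 to -0.39, adjusted p = 0.0341). Both calls in SCI+FIPI against SCI depended on single mice. That of Ccl2 was lost without SCI+FIPI mouse 2 (log2 fold change -1.39, adjusted p = 0.0812) and held without each of the other 8. That of Ccl7 was lost without SCI mouse 2 or 3 or any SCI+FIPI mouse, with a log2 fold change of -0.59 to -1.04 and an adjusted p of 0.0588 to 0.152.

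**Figure D2:**
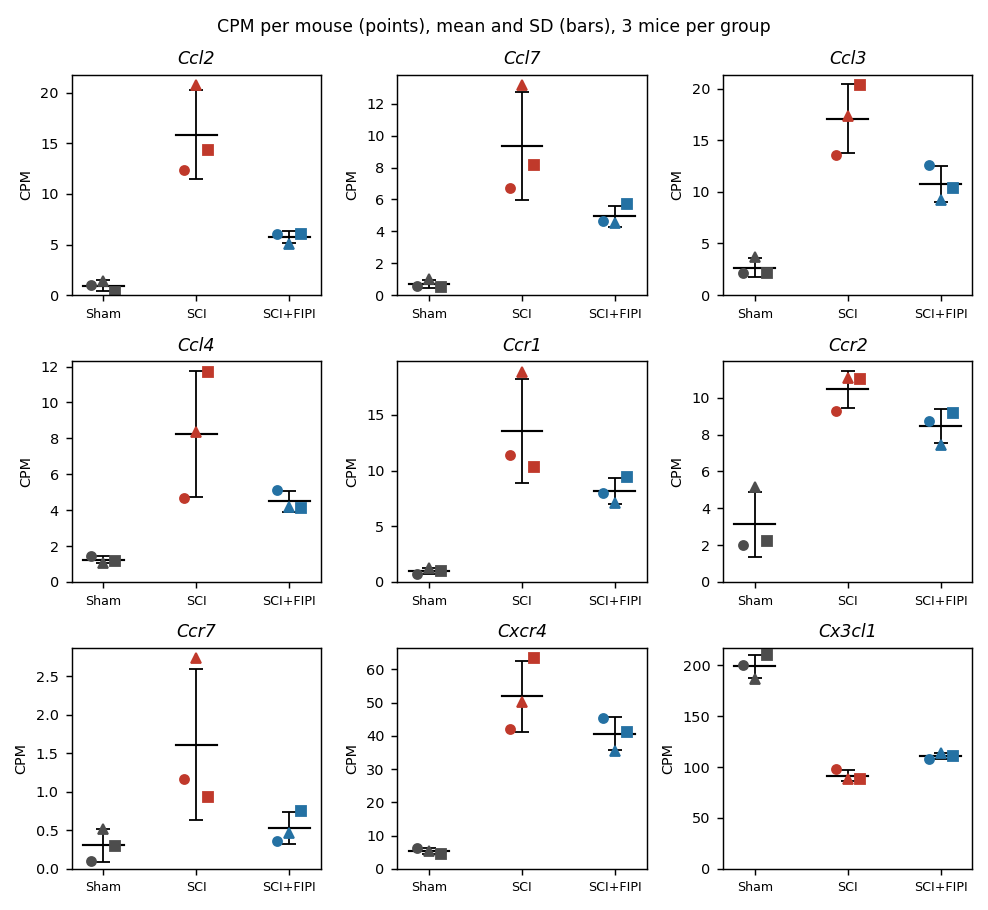
CPM in each mouse for 9 of the genes (points, shaped by mouse number), with the mean as a long bar and the SD as a vertical bar, 3 mice per group, on linear axes from 0. For Ccl2 the SCI mice sit between 12.4 and 20.8, above SCI+FIPI at 5.04 to 6.08, and for Cx3cl1 the order of the groups is turned, with Sham highest.

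Ccl8 had 1 count in each Sham mouse, 21 to 40 counts in the SCI mice and 11 to 46 in the SCI+FIPI mice. Summed over the mice, 89 counts in SCI stood against 3 in Sham, a ratio of 28.1 with an exact 95% counting interval of 9.31 to 139. SCI+FIPI overlapped SCI, and the log2 fold change of -0.05 between them had an interval of -0.93 to 0.84. Ccl12 was at 1.44, 1.12 and 0.501 CPM in Sham, 3.31, 3.80 and 3.16 CPM in SCI and 2.99, 1.74 and 1.85 CPM in SCI+FIPI. It rose in SCI by 1.76 on the log2 scale (adjusted p = 0.000177). In SCI+FIPI against SCI all 3 mice were lower, with a log2 fold change of -0.65 (-1.26 to -0.03) and an adjusted p of 0.175.

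The eotaxins Ccl11 and Ccl24 had positive log2 fold changes in SCI+FIPI against SCI, which did not pass. Ccl11 was at 0.623, 0.734 and 0.752 CPM in Sham and 1.01, 1.57 and 2.87 CPM in SCI, a rise of 1.36 on the log2 scale (adjusted p = 0.00463). In SCI+FIPI it was at 2.64, 2.08 and 3.27 CPM, and its log2 fold change against SCI was 0.55 (-0.12 to 1.23), with overlapping groups. Ccl24 had at most 13 counts in any mouse. It was called in SCI+FIPI against Sham (log2 fold change 1.31, adjusted p = 0.0415) and not in SCI against Sham (1.02, adjusted p = 0.107). The call was lost without 6 of the 9 mice, left out in turn, with the adjusted p then at most 0.122. In a fit to the 2 groups compared it had too few counts for either test. Its entry into the test therefore leaned on the third group. The difference between SCI+FIPI and SCI was 0.29 (-0.68 to 1.26), so the 2 injured groups were not told apart.

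Ccl3 and Ccl4, the macrophage inflammatory proteins, and Ccl5, Ccl6 and Ccl9 act on Ccr1 and related receptors of monocytes, macrophages and T cells. In SCI 4 of the 5 rose, against 24.4% of all genes, and Ccl5 did not pass. Ccl3 was at 2.11, 3.71 and 2.17 CPM in Sham, 13.6, 17.3 and 20.3 CPM in SCI and 12.6, 9.16 and 10.4 CPM in SCI+FIPI. It rose 6.38-fold in SCI (log2 fold change 2.67, adjusted p = 5.55e-07). Its SCI+FIPI mice all lay below the SCI mice, with a log2 fold change of -0.68 (-1.10 to -0.25), and the adjusted p of 0.0514 missed the threshold. That p fell below 0.05 in 8 of 20 other settings, without SCI mouse 1 (0.0166), SCI+FIPI mouse 1 (0.0451) or Sham mouse 2 (0.0192) among them.

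Ccl4 was at 1.44, 1.08 and 1.17 CPM in Sham, 4.70, 8.35 and 11.7 CPM in SCI and 5.14, 4.20 and 4.11 CPM in SCI+FIPI. SCI mouse 1 lay within the SCI+FIPI range and the other 2 SCI mice above it. The log2 fold change was 2.75 in SCI against Sham (adjusted p = 7e-06) and -0.88 in SCI+FIPI against SCI (-1.47 to -0.30, adjusted p = 0.0598). Without SCI mouse 1 the latter was -1.16 (adjusted p = 0.00138).

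Ccl6 was at 45.9, 45.6 and 43.1 CPM in SCI against 9.72, 13.7 and 8.02 CPM in Sham and 30.8, 26.1 and 42.4 CPM in SCI+FIPI. It rose by 2.10 on the log2 scale in SCI (adjusted p = 5.35e-05), and its log2 fold change of -0.44 in SCI+FIPI against SCI did not pass (adjusted p = 0.237). Ccl9 was at 6.66, 14.0 and 6.81 CPM in Sham, 36.8, 53.2 and 27.9 CPM in SCI and 21.5, 24.9 and 33.8 CPM in SCI+FIPI. It also rose by 2.10 in SCI (adjusted p = 0.00275) and overlapped between the injured groups. Ccl5, which attracts T cells, ranged from 0.836 to 2.25 CPM in Sham, 0.923 to 2.81 CPM in SCI and 0.492 to 1.02 CPM in SCI+FIPI, and passed in none of the 3 comparisons.

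Cxcl1, Cxcl2 and Cxcl5, the neutrophil attractants, were low and uneven. Cxcl1 (chr5:90891241-90893115, plus strand), whose upstream run is printed above, was at 0.192, 0.0864 and 0.0836 CPM in Sham, 0.797, 2.32 and 2.19 CPM in SCI and 0.939, 0.805 and 1.38 CPM in SCI+FIPI. It rose by 3.85 on the log2 scale in SCI (2.68 to 5.01, adjusted p = 1.72e-05) and was 3.09 above Sham in SCI+FIPI (adjusted p = 0.000309). Cxcl2 (chr5:90903871-90905938, plus strand), its neighbor with the same kappaB letters, was at 0.0958, 0.302 and 0.125 CPM in Sham, 1.01, 8.02 and 0.802 CPM in SCI and 0.358, 1.23 and 1.22 CPM in SCI+FIPI. SCI mouse 2 stood far above the other 2 SCI mice. Its log2 fold change of 4.18 in SCI (1.09 to 7.26, adjusted p = 0.0249) was called, but the call was lost without Sham mouse 1, 2 or 3 (adjusted p 0.0751, 0.0591 and 0.0845) with no filter (0.0578), in a fit to the 2 groups compared (0.054) and with limma-voom (0.11). DESeq2 gave it no adjusted p. Without SCI mouse 2 the log2 fold change in SCI+FIPI against SCI moved from -1.80 to 0.05.

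Cxcl5 was likewise highest in SCI mouse 2, at 4.67 CPM against 1.17 and 0.844 CPM in the other SCI mice, 0.623 to 0.907 CPM in Sham and 0.536 to 2.92 CPM in SCI+FIPI. It passed in none of the comparisons as reported. With the replicate number added to the fit it passed in SCI against Sham (adjusted p = 0.0418), and without SCI mouse 2 in SCI+FIPI against Sham (adjusted p = 0.0326). Cxcr2, the receptor of these ligands on neutrophils, was at 0.287, 1.25 and 0.669 CPM in Sham, 1.64, 3.35 and 1.01 CPM in SCI and 0.849, 2.08 and 2.26 CPM in SCI+FIPI. It too was highest in SCI mouse 2, and its log2 fold change of 1.42 in SCI missed the threshold (adjusted p = 0.0576). It passed in 6 of 19 other settings, among them no filter (5.16e-05), DESeq2 (0.0121) and the fits without Sham mouse 2 (0.0234), SCI mouse 3 (0.0243) or SCI+FIPI mouse 1 (0.0372). Nor was Cxcr2 called in SCI+FIPI against Sham (1.22, adjusted p = 0.109), where it passed in 5 of 19 other settings. Of the 8 neutrophil markers, 0 passed in SCI against Sham (47% of all genes), and 0 had an unadjusted p under 0.05 (68.6%). They summed to 29.7 to 87.2 CPM in Sham, 44.1 to 56.4 CPM in SCI and 20.1 to 112 CPM in SCI+FIPI, with Ly6g at 0 counts in 1 Sham and 1 SCI+FIPI mouse. In SCI+FIPI against SCI the log2 fold change was positive in 8 of the 8 (49.7% of all genes), with a median of 0.667. Of the 8, 0 were called there (3.06% of all genes) and 1 had an unadjusted p under 0.05 (25.2%). By their sum, the SCI+FIPI mice lay both below and above the SCI mice.

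Cxcl9 and Cxcl10, interferon-inducible ligands, attract activated T cells and natural killer cells through Cxcr3. Cxcl11, listed with them, is annotated as a polymorphic pseudogene, so a working ligand is not assumed from its RNA. None of the 3 passed in any of the 3 comparisons in edgeR. Of all genes, 47% were called in SCI against Sham, 3.06% in SCI+FIPI against SCI and 38.1% in SCI+FIPI against Sham. An unadjusted p under 0.05 was reached by 0 of 3 in each, against 68.6%, 25.2% and 62.9% of all genes in that order. Cxcl10 (chr5:92346638-92348889, minus strand), which carries the interferon response element shown above, was at 5.27, 12.3 and 1.38 CPM in Sham, 6.33, 17.5 and 5.82 CPM in SCI and 10.3, 5.93 and 7.47 CPM in SCI+FIPI. Its groups overlapped, and the interval of its log2 fold change in SCI against Sham, 0.65, ran from -1.23 to 2.54, so that neither a rise nor a fall of that size could be detected at this spread. Art3 overlaps 5.91% of its exonic bases on the other strand. Cxcl9 ranged from 0.192 to 1.47 CPM in Sham, 0.127 to 1.53 CPM in SCI and 0.447 to 1.01 CPM in SCI+FIPI. Cxcl11 stayed at or below 0.827 CPM in all 9 mice, and its count is uncertain, since Gm2673 overlaps it on the other strand and 40.9% of its 50-base stretches are found elsewhere.

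The lymphocyte and dendritic cell attractants were near the limit of detection or did not pass. Ccl25, a thymus and gut ligand, was at 7.86 to 8.67 CPM in Sham, 6.20 to 7.63 CPM in SCI and 7.08 to 7.93 CPM in SCI+FIPI. All SCI mice lay below the Sham mice, and the log2 fold change of -0.32 (adjusted p = 0.0391) was under the fold limit. Elavl1 overlaps 2.74% of its exonic bases on the other strand. Ccl19 and Ccl22, ligands of Ccr7 and of Ccr4, passed in none of the comparisons. Ccl22 was at 0.334 to 0.907 CPM in Sham, 0.802 to 1.65 CPM in SCI and 0.581 to 0.805 CPM in SCI+FIPI. The counts of Ccl19 are uncertain, since 59.1% of its 50-base stretches also occur in Gm2564 or in Ccl19 pseudogenes. Ccl17 and Cxcl13 had too few counts for the test as reported. Ccl17 had 0 to 3 counts in the Sham mice, 0 to 7 in the SCI mice and 5 to 12 in the SCI+FIPI mice. Its 27 counts over the SCI+FIPI mice against 3 in Sham gave a ratio of 8.76 with an exact counting interval of 2.7 to 45.1, which leaves out the spread between mice. It entered the test and was called higher in SCI+FIPI against Sham with no filter and without Sham mouse 2, SCI mouse 1, 2 or 3, or SCI+FIPI mouse 2. It was not called there without Sham mouse 1 or 3. Where a filter was used, only its counts in the SCI+FIPI mice could pass it. Those calls therefore rest on the group where it was highest and are not used as support. Cxcl13, a B cell attractant, had at most 11 counts in any mouse. The 6 T and natural killer cell markers summed to at most 4.15 CPM in any mouse.

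Cx3cl1 (chr8:94772009-94782427, plus strand), or fractalkine, was the gene of the 40 that fell. It was at 200, 187 and 210 CPM in Sham, 97.6, 88.0 and 88.3 CPM in SCI and 108, 114 and 111 CPM in SCI+FIPI. The 3 groups did not overlap. In SCI its log2 fold change was -1.13 (-1.26 to -0.99, adjusted p = 1.33e-09), and in SCI+FIPI against Sham it was -0.84 (adjusted p = 4.33e-08). The log2 fold change of 0.28 in SCI+FIPI against SCI (0.15 to 0.41) had an adjusted p of 0.0141 and was under the fold limit of 0.5. Of the 8 neuron markers, 8 were called lower in SCI against Sham (22.5% of all genes). In SCI+FIPI against SCI, 5 of the 8 were called higher (2.36% of all genes). Their sum was 4100 to 4600 CPM in Sham, 1010 to 1430 CPM in SCI and 1710 to 2060 CPM in SCI+FIPI. The part of neuron number in the level of Cx3cl1 was not tested.

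Cxcl16, a second ligand anchored in the membrane, rose instead. It was at 8.43, 11.7 and 7.81 CPM in Sham, 38.4, 47.6 and 47.6 CPM in SCI and 37.0, 35.1 and 46.9 CPM in SCI+FIPI, a log2 fold change of 2.26 in SCI against Sham (adjusted p = 7.82e-07). Zmynd15 overlaps it on the other strand and 19% of its 50-base stretches are shared with that gene, so part of its counts could belong there. Cxcl12 and Cxcl14 differed from Sham by less than the fold limit. Cxcl12, the ligand of Cxcr4, was at 74.6, 87.7 and 88.4 CPM in Sham, 95.4, 97.4 and 113 CPM in SCI and 87.3, 95.4 and 88.2 CPM in SCI+FIPI, with a log2 fold change of 0.29 in SCI (adjusted p = 0.00561) that was under the fold limit. Cxcl14 ranged from 74.4 to 90.3 CPM over all 9 mice, and its log2 fold change of -0.09 in SCI had an interval of -0.21 to 0.04.

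**Figure D3:**
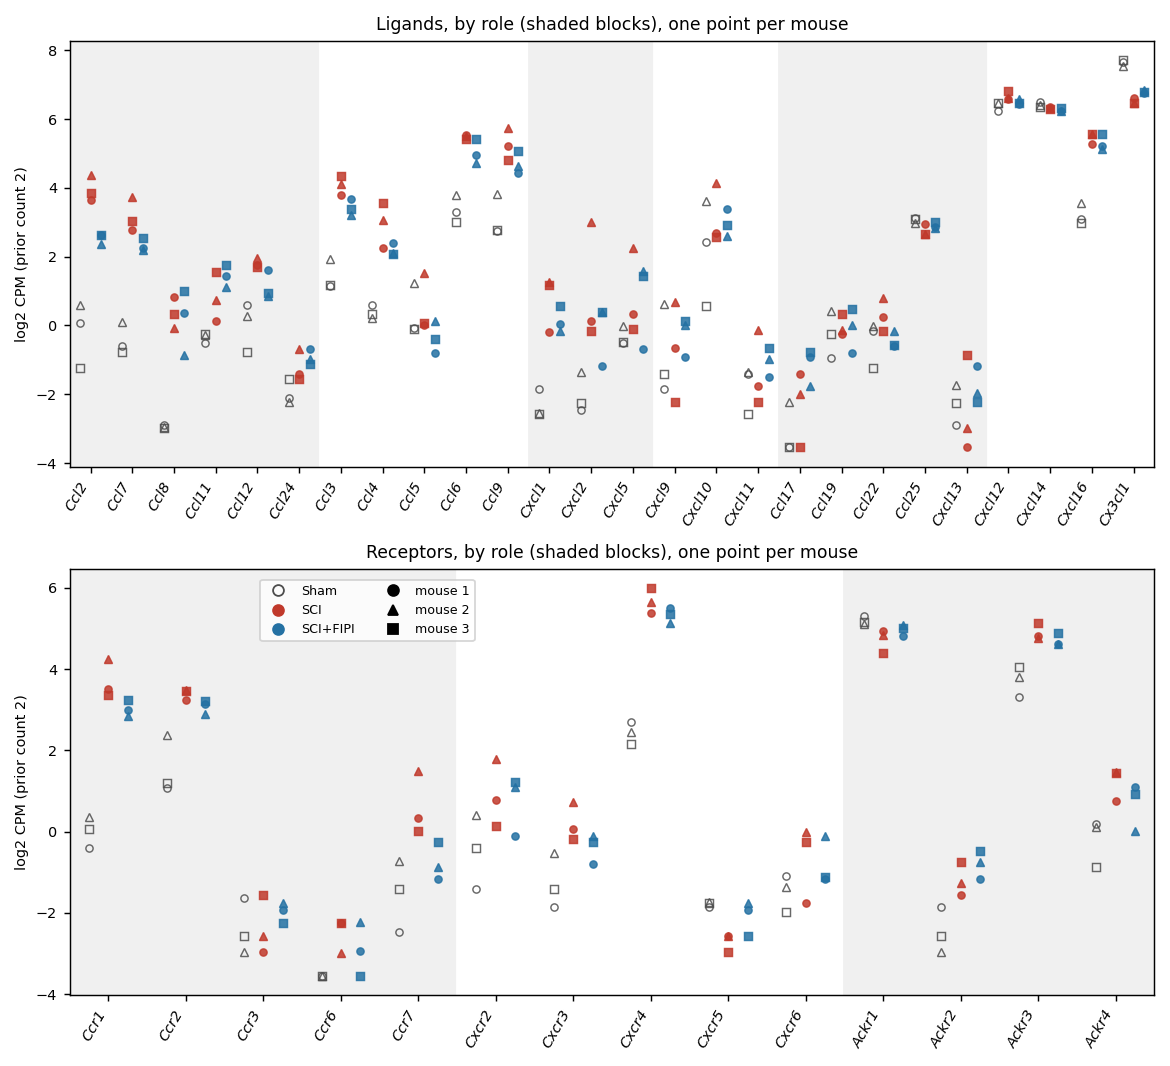
Log2 CPM (prior count 2) of all 40 genes in each mouse, ligands above and receptors below, with shaded and white blocks for the groups by role, color for the group and shape for the mouse number. Sham points of Ccl2, Ccl7 and Cxcr4 lie below the red and blue points, while the 3 groups overlap for Cxcl9 to Cxcl11.

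Among the receptors, 8 of 11 tested rose in SCI, against 24.4% of all genes. In SCI+FIPI against SCI 0 of 11 passed, against 3.06% of all genes. An unadjusted p under 0.05 was reached there by 2 of 11, against 25.2%. All 3 tested CC receptors rose in SCI, against the same 24.4% of all genes. Ccr1, the receptor of Ccl3, Ccl6 and Ccl9, was at 0.671, 1.21 and 0.961 CPM in Sham, 11.4, 18.9 and 10.3 CPM in SCI and 7.96, 7.12 and 9.44 CPM in SCI+FIPI. It rose 14.1-fold in SCI (log2 fold change 3.82, adjusted p = 2.17e-07). All SCI+FIPI mice lay below the SCI mice, with a log2 fold change of -0.73 (-1.21 to -0.24) and an adjusted p of 0.0622. Without SCI mouse 1 or 3 that adjusted p was 0.0433 or 0.0371.

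Ccr2, the receptor through which Ccl2 and Ccl7 act, was at 2.01, 5.14 and 2.21 CPM in Sham, 9.31, 11.1 and 11 CPM in SCI and 8.76, 7.42 and 9.19 CPM in SCI+FIPI. It rose by 1.74 on the log2 scale in SCI (1.09 to 2.38, adjusted p = 0.000365). The SCI+FIPI mice lay just below the SCI mice, by -0.31 (-0.90 to 0.28, adjusted p = 0.52). Ccr7, which guides dendritic cells and T cells to lymph nodes, was at 0.0958, 0.518 and 0.293 CPM in Sham, 1.17, 2.73 and 0.928 CPM in SCI and 0.358, 0.466 and 0.755 CPM in SCI+FIPI. It rose by 2.37 in SCI (adjusted p = 0.00152), and its log2 fold change of -1.60 in SCI+FIPI against SCI (-2.67 to -0.53) missed the threshold (adjusted p = 0.0584). Without SCI mouse 1 or 3 it passed (-1.78 and -1.88, adjusted p 0.0428 and 0.0448). Ccr7 was not called in SCI+FIPI against Sham (0.77, adjusted p = 0.302). The 4 dendritic cell markers went different ways. In SCI, Itgax and Cd209a rose (log2 fold changes 2.41 and 3.63), Flt3 fell (-1.53) and Zbtb46 did not pass, and in SCI+FIPI against SCI Cd209a was called lower (-1.29, adjusted p = 0.0444). Their part in the values of Ccr7 was not tested.

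Cxcr4, the receptor of Cxcl12, rose in SCI, where its ligand stayed under the fold limit. It was at 6.37, 5.36 and 4.35 CPM in Sham, 42.0, 50.2 and 63.4 CPM in SCI and 45.3, 35.4 and 41.1 CPM in SCI+FIPI. The increase was 9.71-fold in SCI (log2 fold change 3.28, 2.85 to 3.71, adjusted p = 2e-07) and 7.61-fold in SCI+FIPI (2.93, adjusted p = 8.2e-07). The injured groups overlapped, with a log2 fold change of -0.35 between them (-0.71 to 0.01). Cxcr3 rose by 1.59 in SCI (adjusted p = 0.00519), from 0.192 to 0.605 CPM in Sham to 0.802 to 1.57 CPM in SCI. In SCI+FIPI it was at 0.492 to 0.848 CPM and was not called against either group. Cxcr6, the receptor of Cxcl16, passed in none of the comparisons, at 0.167 to 0.383 CPM in Sham, 0.210 to 0.910 CPM in SCI and 0.358 to 0.848 CPM in SCI+FIPI.

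Of the 4 atypical receptors, 3 rose in SCI, against 24.4% of all genes. Ackr3, which takes up Cxcl12, was at 9.92, 14.0 and 16.6 CPM in Sham, 28.0, 27.1 and 35.3 CPM in SCI and 24.5, 24.4 and 29.7 CPM in SCI+FIPI, with a log2 fold change of 1.15 in SCI (adjusted p = 0.000202). Ackr4 rose by 1.47 (adjusted p = 0.00241), with 8.9% of its exonic bases overlapped by Acad11 on the other strand. Ackr2, which degrades inflammatory CC ligands, rose by 1.76 (adjusted p = 0.0217). Ackr2 had at most 15 counts in any mouse, and its call was lost without Sham mouse 2 or 3 or SCI mouse 3, with an adjusted p of up to 0.0965. In a fit to the Sham and SCI mice alone it had too few counts to be tested. Its entry into the test therefore leaned on the SCI+FIPI mice. Ackr1, which carries chemokines across the endothelium of venules, had a negative log2 fold change. It was at 39.4, 34.5 and 35.4 CPM in Sham, 30.8, 28.7 and 21.1 CPM in SCI and 27.9, 34.1 and 32.2 CPM in SCI+FIPI. Its log2 fold change of -0.44 in SCI (adjusted p = 0.0085) was under the fold limit and reached -0.55 without SCI mouse 1 (adjusted p = 0.00213). The 3 endothelial markers summed to 112 to 127 CPM in Sham, 287 to 328 CPM in SCI and 215 to 285 CPM in SCI+FIPI. Of these, 3 of 3 rose in SCI (24.4% of all genes). Ackr1 is also carried by red cells, and the 3 red cell markers summed to 250 to 327 CPM in Sham, 86.7 to 204 CPM in SCI and 57 to 200 CPM in SCI+FIPI. All 3 were lower in every SCI mouse than in every Sham mouse, as were 35% of all genes. Of these 3, 0 were called in edgeR (22.5% of all genes were called lower). An unadjusted p under 0.05 was reached by 0 of them (68.6% of all genes). The part of either cell type in the level of Ackr1 was not tested. Cadm3 overlaps 361 of the 1405 exonic bases of Ackr1 on the same strand, so part of its counts could belong there.

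The receptors Ccr3, Ccr6 and Cxcr5 were not tested. Ccr3, the eotaxin receptor, had 1 to 6 counts in every mouse. Ccr6 had 0 counts in the Sham mice and at most 3 elsewhere, so no fold was given. Cxcr5, the receptor of Cxcl13 on B cells, had 4 or 5 counts in the Sham mice, 1 or 2 in the SCI mice and 2 to 5 in the SCI+FIPI mice, and Bcl9l overlaps 3.3% of its exonic bases on the other strand.

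Levels of different genes were compared per length as FPKM, the count scaled by the length of the gene's exons and by the library total. In Sham, Cx3cl1 (51.0 ± 2.23 FPKM, SD, n = 3) and Cxcl14 (47.0 ± 2.79) were the highest of the 40 and overlapped, followed by Ackr1 (26.1 ± 1.73) and Cxcl12 (10.3 ± 0.995), which overlapped with neither neighbor. In SCI, Cxcl14 (43.3 ± 0.89) stood above the rest in every mouse. Cxcr4 (28.3 ± 5.9), Ccl6 (24.7 ± 0.83), Cx3cl1 (22.9 ± 1.42), Ccl3 (22 ± 4.3) and Ackr1 (18.9 ± 3.57) came next, and each overlapped with the gene after it in this order. In SCI+FIPI the order was Cxcl14 (42.0 ± 1.43), Cx3cl1 (28.3 ± 0.738), Cxcr4 (22.5 ± 2.74), Ackr1 (22.4 ± 2.31) and Ccl6 (18.5 ± 4.72), and from Cxcr4 on each overlapped with the next.

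The make-up of the ligand pool differed between the groups. The 26 ligands summed to 138 ± 9.78 FPKM in Sham, 214 ± 21.2 FPKM in SCI and 173 ± 13.5 FPKM in SCI+FIPI (SD, n = 3), and the 3 groups did not overlap. Resident and membrane-bound ligands (Cxcl12, Cxcl14, Cxcl16 and Cx3cl1) held 81.1% ± 5.64 of the sum in Sham, 43.9% ± 4.53 in SCI and 54.7% ± 2.95 in SCI+FIPI. The monocyte chemoattractant and eotaxin ligands held 3.21% ± 0.891, 16.7% ± 1.99 and 11.8% ± 1.34, and the group of Ccl3, Ccl4, Ccl5, Ccl6 and Ccl9 held 11.3% ± 2.82, 34.3% ± 1.97 and 28.1% ± 1.68. For all 3 classes the SCI+FIPI mice lay between the Sham and the SCI mice with no overlap. The neutrophil attractants held at most 3.19% in any mouse.

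**Figure D4:**
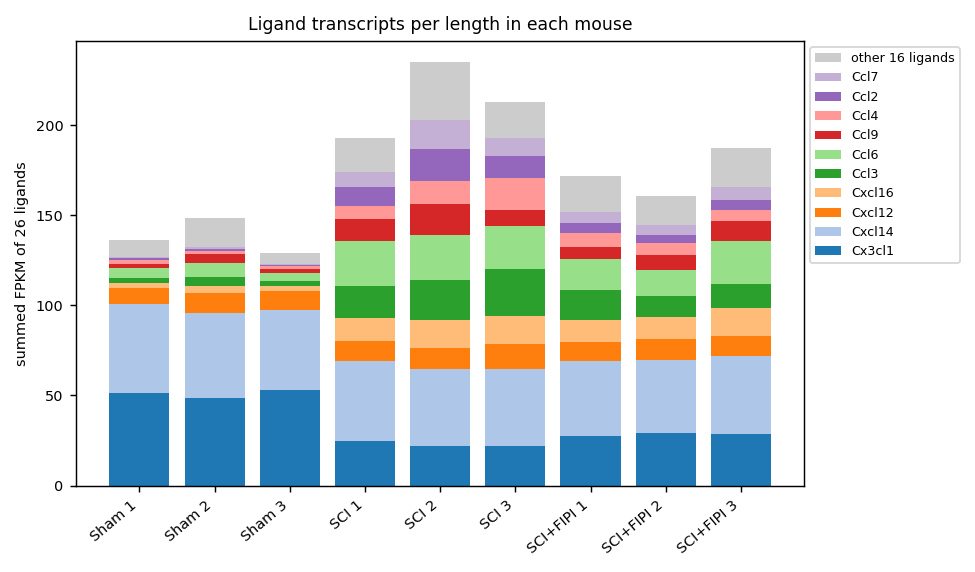
Summed FPKM of the 26 ligands in each of the 9 mice, as stacked bars from 0, with the 10 named ligands in color and the other 16 in grey. The Sham bars reach 129 to 148 and are mostly Cx3cl1 and Cxcl14, and the SCI bars reach 193 to 235 with wide blocks of Ccl3, Ccl6 and Ccl9.

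The receptor pool differed between Sham and the injured groups. The 14 receptors summed to 35 ± 1.03 FPKM in Sham, 65.3 ± 4.21 FPKM in SCI and 59.0 ± 2.52 FPKM in SCI+FIPI. The injured groups overlapped in this sum (60.5 to 68 FPKM in SCI and 57.3 to 61.9 FPKM in SCI+FIPI). Ackr1 held 74.6% ± 3.31 of the receptor sum in Sham, 29.1% ± 6.94 in SCI and 38.0% ± 4.16 in SCI+FIPI. Its share overlapped between the injured groups (22 to 35.8% in SCI and 34.3 to 42.5% in SCI+FIPI), and some of its counts could be of Cadm3. Cxcr4 held 8.5% ± 1.39, 43.2% ± 7.14 and 38.2% ± 4.65 in the same order, with the injured groups overlapping.

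Single mice weighed on these values. SCI mouse 2 was the highest of the 3 SCI mice in 21 of the 40 genes (52.5%), against 30.4% of all genes tested. Sham mouse 2 was the highest Sham mouse in 22 of 39 genes with any count in that group (56.4%, against 33.8% of all genes), and SCI+FIPI mouse 3 in 19 of 40 (47.5%, against 31.9%). Without SCI mouse 2, and likewise without SCI+FIPI mouse 3, Ccl2 alone was lower in SCI+FIPI than in SCI. Without SCI mouse 1, 7 genes were lower (Ccl2, Ccl3, Ccl4, Ccl7, Ccr1, Ccr7 and Cxcl1), and without SCI+FIPI mouse 2, 0 were. The count over all genes moved as well: 130 were lower with all 9 mice, 257 without SCI mouse 1, 54 without SCI mouse 2, 23 without SCI+FIPI mouse 2 and 64 without SCI+FIPI mouse 3. The number that rose in SCI against Sham was between 18 and 21 with any 1 mouse left out.

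**Figure D5:**
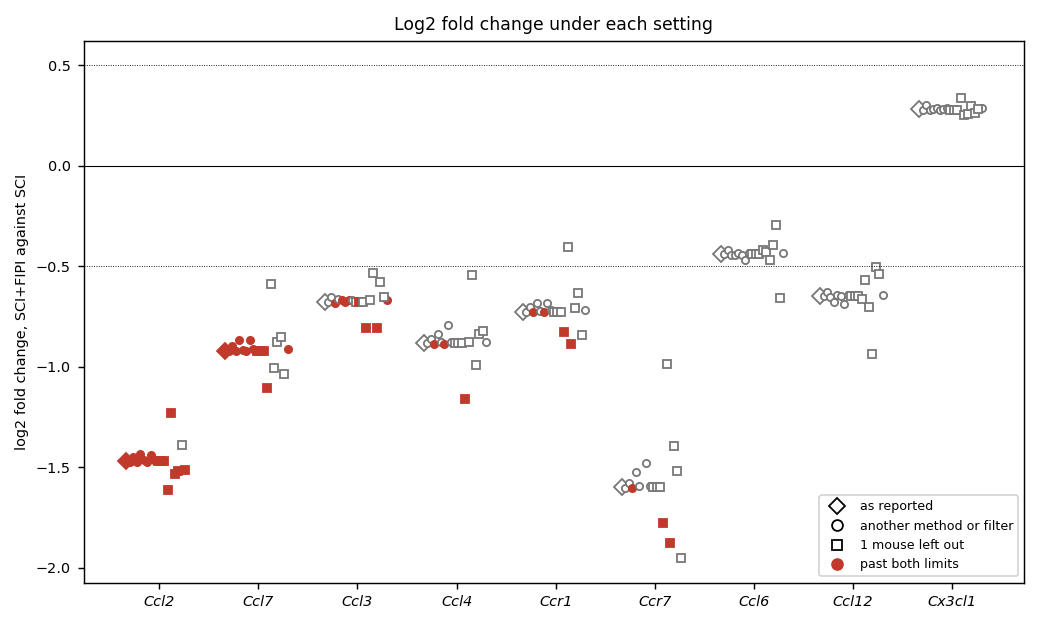
Log2 fold change in SCI+FIPI against SCI for 9 of the genes under each processing setting, with dotted lines at 0.5 and -0.5. Diamonds are the values as reported, circles other methods or filters and squares fits with 1 mouse left out, red where both limits were passed, and Ccl2 is red except without SCI+FIPI mouse 2.

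Other genes of the chemokine families were examined from a list. Of 24 further ligand and receptor genes, 13 had enough counts. In SCI against Sham 7 of the 13 were higher and 1 lower, against 24.4% and 22.5% of all genes. Between SCI+FIPI and SCI 0 of 13 passed in edgeR, against 3.06% of all genes, and 5 of 13 had an unadjusted p under 0.05, against 25.2%. Pf4, platelet factor, was at 1.2, 2.16 and 1.38 CPM in Sham, 41.4, 42.2 and 36.2 CPM in SCI and 34.2, 27.3 and 33.6 CPM in SCI+FIPI, a log2 fold change of 4.65 in SCI (adjusted p = 1.04e-10). Cxcr1 had 39 counts over the SCI mice against 1 in Sham, a ratio of 36.9 with an exact counting interval of 6.25 to 1496. Cxcl3, a neutrophil attractant, rose by 3.85 (adjusted p = 0.024) and was highest in SCI mouse 2, at 3.47 CPM against 0.881 and 0.295 CPM in the other SCI mice. Cx3cr1, the receptor of Cx3cl1 on microglia, rose by 1.64 (adjusted p = 3.54e-07) from 74.7 to 109 CPM in Sham to 259 to 313 CPM in SCI, opposite to its ligand, and Gm33858 overlaps 1.73% of its exonic bases on the other strand. Ccl27a fell by 1.09 on the log2 scale (adjusted p = 8.62e-08), and its count is uncertain, as 69.2% of its 50-base stretches are found elsewhere and Il11ra1 overlaps 0.34% of its exonic bases on the other strand.

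Downstream of the receptors, 37 genes of G protein signaling, phosphoinositide 3-kinase, small GTPases, arrestins and receptor kinases were tested. In SCI against Sham 24 were higher and 5 lower, against 24.4% and 22.5% of all genes, and the median log2 fold change was 1.13. Rgs1, which shortens G protein signals in leukocytes, had the largest rise of the list (4.70, adjusted p = 0.000807), and Rac2, the Rac protein of blood cells, rose by 3.20 (adjusted p = 1.33e-06). Gnai1, an inhibitory G protein subunit, fell by 1.43 (adjusted p = 1.33e-09), and Rasgrp2, an activator of Rap, fell by 1.11 (adjusted p = 2.19e-08), with Gm14965 over 2.14% of its exonic bases on the other strand. In SCI+FIPI against SCI 1 of the 37 was called, Pik3r5, a regulatory subunit of the kinase that chemokine receptors activate, and a share of 1 in 37 is below the 3.06% of all genes called. By adjusted p alone 11 of the 37 passed, against 9.63% of all genes, and in 19 every SCI+FIPI mouse lay below every SCI mouse, against 14.5%. Pik3r5 was at 8.77, 8.90 and 5.27 CPM in Sham, 50.9, 64.6 and 61.2 CPM in SCI and 42.6, 38.1 and 35 CPM in SCI+FIPI, so the groups did not overlap. Its log2 fold change was 2.95 in SCI against Sham (adjusted p = 2.8e-07) and -0.61 in SCI+FIPI against SCI (-0.96 to -0.26, adjusted p = 0.0404). The median of the list in SCI+FIPI against SCI was -0.243, against -0.001 over all genes.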

How the data were processed

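Poly(A) RNA from the spinal cord of 9 mice was sequenced on an Illumina instrument. The authors trimmed adapters and poor reads and deposited raw counts for 52550 genes, with no normalization. The submitters' processing notes name GRCm38 and R 4.2.3. The aligner, the annotation and the use of strand in counting are not given in the sources used here, although the kit marked the second strand, so overlaps with a gene on the other strand are given beside the genes named.

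Of the identifiers, 52403 matched GENCODE M21 (GRCm38). Analysis used R 4.3.3 with edgeR 4.0.16 (TMM factors, filterByExpr by group, robust quasi-likelihood fit to all 9 mice, one mean per group, 18699 genes, common dispersion 0.00866). A call needed an absolute log2 fold change of 0.5 and an adjusted p under 0.05, limits taken from the study's methods, which name no test. CPM were scaled by TMM. FPKM used the total count and exonic length. Intervals cover 95%. On simulated counts with 200 changed genes, 78 of 100 at a log2 fold of 1 and 97 at a log2 fold of 2 were recovered, with 6 false calls among 18197. The changed genes were drawn from all genes tested and changed in SCI alone, with the rest left unchanged. These rates were not measured for genes with few counts or for SCI+FIPI against SCI. Replicates differed by more than counting noise (chi-square per gene 6.59 to 12.7), so none was merged, and p-values measure the spread between these mice. Depth was 20806000 to 24582377 counts per mouse, and genes under about 10 counts are imprecise. Counting intervals cover counting error only.

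The alternatives were scaling by RLE or upper quartiles, testing all genes with a count, a minimum of 10 counts per mouse, a replicate block, a fit to the 2 groups compared, DESeq2 1.42.0, limma-voom (limma 3.58.1), no mitochondrial or hemoglobin genes, other limits, and each mouse left out. All 40 genes were named. Of the other family genes and the signaling list, those called in SCI+FIPI against SCI and, in SCI against Sham, the 3 largest and 2 smallest called log2 fold changes were named. The genes, lists and tests were chosen with earlier results of these data known. Sequences, counting intervals and figures were handled in Python 3.11.15 (scipy 1.17.1, numpy 2.4.6, matplotlib 3.10.9).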

Additional observations from a re-analysis of the deposited data

How the results depend on the processing

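Across 20 other settings, counts of the 40 genes called moved by more than 1.5 times in these cases. In SCI against Sham, 13 were higher with at least 10 counts in every mouse, where 21 were tested, and 2 were lower with upper-quartile factors and 3 with adjusted p alone. In SCI+FIPI against SCI, 1 was higher with adjusted p alone (Cx3cl1), and 7 were lower with no filter, 5 with DESeq2, which gave no adjusted p for 14 of the 35, and 1 with a log2 fold limit of 1. In SCI+FIPI against Sham, 2 were lower with no filter, with the replicate block and with adjusted p alone, and 0 with a log2 fold limit of 1. The causes were not tested, beyond the fewer genes tested and the changed limits. With 1 mouse left out, the numbers lower were 1 to 2 in SCI against Sham and 0 to 7 in SCI+FIPI against SCI.

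Replicate numbers are shared by different animals, and same-numbered mice had correlations of -0.073 to 0.108, so the numbers do not pair the mice, and not every mouse correlated best with its own number. With the replicate block, 22 genes were higher in SCI against Sham, Cxcl5 (adjusted p = 0.0418) and Cxcr2 (0.00778) being added, and Ccl2 and Ccl7 were again the 2 lower in SCI+FIPI against SCI. The block added, for SCI+FIPI against Sham, Cxcl2 and Cxcr2 as higher and Ccl5 as lower, and Ccl24 and Ackr4 were no longer called.

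Directions turned only in results that were not called, Cxcl2 in SCI+FIPI against SCI included. Ccl19 was at 0.007 in SCI+FIPI against SCI with upper-quartile factors, and Ccl22 at 0.063 in SCI+FIPI against Sham with limma-voom. With 1 mouse left out, log2 fold changes in SCI against Sham ran from -0.473 to 0.883 for Ccl5, -0.952 to 1.568 for Cxcl9, -0.048 to 1.599 for Cxcl10, -0.383 to 1.213 for Cxcl11 and -0.121 to 0.617 for Ccl19. In SCI+FIPI against SCI they ran from -0.575 to 0.339 for Ccl8, -2.259 to 0.054 for Cxcl2, -0.517 to 1.014 for Cxcl5, -0.378 to 1.234 for Cxcl9, -0.599 to 0.374 for Cxcl10, -0.323 to 1.273 for Cxcl11, -0.363 to 0.276 for Ccl19, -0.521 to 0.389 for Cxcr2 and -0.761 to 0.126 for Cxcr6. In SCI+FIPI against Sham they ran from -0.134 to 1.684 for Cxcl9, -0.162 to 1.27 for Cxcl10, -0.19 to 0.604 for Ccl19 and -0.386 to 0.219 for Ccl22. Scaling moved the median of all genes by at most -0.064. A share of summed FPKM within a library cancels the scaling of the total, so that alternative could not move it. Genes with few counts, among them Ccl24, Ackr2, Cxcl2 and Ccl17, limit what 3 mice per group can show.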
